A study of Mus musculus with 6 samples.

Results

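Collagen chains, matrix metalloproteinases, ADAMTS proteases, lysyl oxidases and the inhibitors Timp2 and Timp3 were followed in the liver of Mdr2 knockout mice given lycorine or vehicle. Members were all protein-coding rows of the deposited table with a collagen chain symbol (Col, digits, a, digits), a symbol starting with Mmp or Adamts and a digit, or one of the names Lox, Loxl1 to Loxl4, Timp2 and Timp3. The rule used names only and found 92 genes among the 58601 rows, of which 44 were collagen chains, 22 Mmp genes, 19 Adamts genes, 5 lysyl oxidases and 2 inhibitors. A mean of at least 1 TPM (transcripts scaled to a common sum, a level corrected for transcript length) over the 6 libraries was required for a test, and 44 members reached it, among them 21 collagen chains. Of the 48 others, 11 were listed at 0 in all 6 libraries.

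The lycorine group held 3 libraries from livers labelled Mdr2 knockout with lycorine, and the vehicle group 3 libraries from livers with the same genotype label and vehicle. Lycorine is an alkaloid of plants of the Amaryllidaceae family. All mice were 8 weeks old when treatment began and were treated for 2 weeks, and the protocol names them Mdr2-HKO without spelling out the letter H, so whether the gene was lost in all cells or in 1 cell type cannot be told from the labels. All groups carried the knockout, and no wild-type liver was analysed here. Mdr2, now Abcb4, moves phosphatidylcholine into bile, and its loss in mice leads to bile duct injury and scarring around the ducts. The question put was by what route lycorine affects intrahepatic cholestasis. Sex, dose and vehicle are not stated in the labels, and neither is whether each library came from a separate mouse, so p-values reflect library-to-library spread that may be technical.

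Collagen chains assemble as triple helices. Types I, III and V form the fibrils of scar tissue, type IV forms the sheet-like network of basement membranes under bile ducts and around vessels, and multiplexins such as Col18a1 sit in basement membranes as collagens with long interruptions. In injured liver, fibrils are laid down mainly by stellate cells and portal fibroblasts, while matrix metalloproteinases cleave collagen, TIMP proteins block them, ADAMTS proteases trim procollagen or cut proteoglycans, and lysyl oxidases crosslink the finished fibrils.

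The stretches around the start sites of 6 members are shown, because the type IV chains share a start region, while the fibril chains and the membrane proteases each have their own. They come from RefSeq on GRCm38.p6, run from 250 bases before to 50 after the start, and are written 5′ to 3′ on the gene's own strand, with CCAAT or its reverse complement ATTGG in capitals. Col1a2, the second chain of type I collagen, is at chr6:4505368-4505667 on the plus strand, and Col3a1, the single chain of type III collagen, at chr1:45311288-45311587 on the plus strand.
Col1a2: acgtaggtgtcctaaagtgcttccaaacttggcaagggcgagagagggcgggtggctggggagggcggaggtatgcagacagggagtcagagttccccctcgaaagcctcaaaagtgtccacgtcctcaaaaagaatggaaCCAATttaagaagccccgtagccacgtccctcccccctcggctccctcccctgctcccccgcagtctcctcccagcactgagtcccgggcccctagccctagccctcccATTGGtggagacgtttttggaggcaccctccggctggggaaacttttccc
Col3a1: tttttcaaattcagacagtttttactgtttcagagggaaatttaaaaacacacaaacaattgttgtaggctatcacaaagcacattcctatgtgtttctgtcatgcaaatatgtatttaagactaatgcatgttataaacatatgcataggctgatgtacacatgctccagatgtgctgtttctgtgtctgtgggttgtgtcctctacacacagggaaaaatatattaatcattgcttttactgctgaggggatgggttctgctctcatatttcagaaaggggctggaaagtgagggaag
Col4a1 and Col4a2, the chains of the common type IV network, are at chr8:11312777-11313076 on the minus strand and chr8:11312555-11312854 on the plus strand.
Col4a1: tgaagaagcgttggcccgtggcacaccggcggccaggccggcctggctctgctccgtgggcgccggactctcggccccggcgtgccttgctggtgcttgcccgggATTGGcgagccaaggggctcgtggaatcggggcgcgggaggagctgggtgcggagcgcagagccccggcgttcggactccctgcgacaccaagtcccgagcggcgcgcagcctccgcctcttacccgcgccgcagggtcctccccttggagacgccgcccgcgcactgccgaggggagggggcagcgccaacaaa
Col4a2: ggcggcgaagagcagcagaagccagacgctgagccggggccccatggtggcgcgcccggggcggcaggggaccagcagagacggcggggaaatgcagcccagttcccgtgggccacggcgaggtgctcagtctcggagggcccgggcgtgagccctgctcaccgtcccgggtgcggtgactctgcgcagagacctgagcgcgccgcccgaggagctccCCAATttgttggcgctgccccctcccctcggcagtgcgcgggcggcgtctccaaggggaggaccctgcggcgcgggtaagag
Mmp14 and Mmp15, proteases anchored in the cell membrane, are at chr14:54431348-54431647 and chr8:95352046-95352345, both on the plus strand.
Mmp14: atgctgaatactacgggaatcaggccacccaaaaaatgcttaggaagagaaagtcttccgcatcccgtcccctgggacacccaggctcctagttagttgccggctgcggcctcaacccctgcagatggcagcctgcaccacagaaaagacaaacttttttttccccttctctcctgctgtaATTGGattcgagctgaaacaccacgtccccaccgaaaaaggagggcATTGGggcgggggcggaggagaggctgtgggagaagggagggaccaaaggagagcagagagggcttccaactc
Mmp15: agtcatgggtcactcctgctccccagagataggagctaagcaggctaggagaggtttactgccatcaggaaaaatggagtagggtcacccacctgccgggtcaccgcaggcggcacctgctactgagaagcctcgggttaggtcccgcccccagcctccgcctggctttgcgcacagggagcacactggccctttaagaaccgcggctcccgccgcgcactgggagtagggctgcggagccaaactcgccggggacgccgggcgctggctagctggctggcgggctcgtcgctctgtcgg
Col4a1 and Col4a2 lie head to head, so their windows share 78 bases and their start sites are 21 bases apart. Counted from the start site at 0, with upstream bases negative, the CCAAT letters begin at -109 and 0 in Col1a2, at -145 in Col4a1, at -32 in Col4a2 and at -69 and -23 in Mmp14. The Col3a1 and Mmp15 windows do not hold these letters. Col3a1 differs from the others in base composition, with 37.7% G or C and 1 TATAAA, against a median of 52.7% over all windows and 74.0% and 73.7% in Col4a1 and Col4a2.

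RefSeq windows were matched for 65 of the 92 members, in 71 windows. Windows on chromosome 18 were not used, here or in the median above, so Lox and Adamts19 could not be matched. Read on both strands, CCAAT was in 22 of these 71 windows (31.0%) and in 37.4% of all 32851 windows of that length. GGGCGG, the GC box, was in 57.7% of member windows and 35.7% of all windows. TATAAA was in 21.1% of member windows and 13.6% of all windows, and TGANTCA, the AP-1 site, in 11.3% of member windows and 7.81% of all windows. These are counts of letters, and binding was not measured.

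The libraries were unequal before any matrix gene was read. Protein-coding nuclear genes held 78.1%, 75.4% and 69.5% of TPM in the lycorine libraries, against 71.5%, 63.7% and 51.5% in the vehicle libraries. Vehicle 3 stood apart, with a mean correlation across genes of 0.759 with the other libraries, against 0.855 to 0.903 for the rest, of which lycorine 3 was lowest. Abcb4, the gene named by the genotype, was at 8.96, 8.32 and 32.2 TPM in the lycorine libraries and at 43.5, 10.8 and 12.3 TPM in the vehicle libraries, and a level over the whole gene cannot show which exons remain. Over all 13854 tested rows the median log2 fold change, on the log2(TPM + 1) scale and as lycorine minus vehicle throughout, was 0.22, and it was -0.02 with median-of-ratios scaling. Fold changes of members near 0.22 are thus no larger than the shift of all rows. Depth is unknown, since TPM keeps none.

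No matrix member passed the test. Over all rows, limma with Benjamini-Hochberg adjustment called 0 of 13854 (0.0%) and 0 of the 44 tested members, whose adjusted p ran between 0.832 and 0.999. At an unadjusted limma p under 0.05, 476 rows passed (3.44%), and 0 of the 44 members. The fold change was smaller than its standard error in 34 of the 44 members and smaller than 2 standard errors in 43. Among the members 24 had a fold change above 0 and 20 below, while of all 13854 tested rows 9680 were above 0 and 4174 below. Of the members 14 lay above the median of all rows, and their own median was 0.05, against 0.22 for all rows. All 3 lycorine libraries lay above all 3 vehicle libraries in 1 tested member, Mmp15, against 9.6% of all tested rows. They lay below in 3, Mmp24, Adamts3 and Col13a1, against 1.01% of all tested rows. In each of these 3, vehicle 3 alone held the high value and brought the gene past the filter. Their count is thus no fair match for that share, and no conclusion is drawn from it.

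Libraries of the same group differed widely. Lycorine 1 held the highest value of 18 of the 44 tested members (40.9%), against 30.8% of all tested rows, and lycorine 3 held the lowest value of 18 (40.9%), against 9.25% of all rows. Vehicle 3 was highest in 14 members (31.8%; all rows 22.6%), vehicle 1 in 7 (15.9%; all rows 20.7%) and vehicle 2 in 0. Vehicle 2 was lowest in 13 (29.5%; all rows 36.4%). The fibril, type IV and type VI chains with their lysyl oxidase Loxl1, their protease Mmp2 and the inhibitor Timp2 made up most of the genes highest in lycorine 1. The genes highest in vehicle 3 were mainly low-level chains and ADAMTS proteases, and 7 of the 14 passed the filter through vehicle 3 alone.

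**Figure D1:**
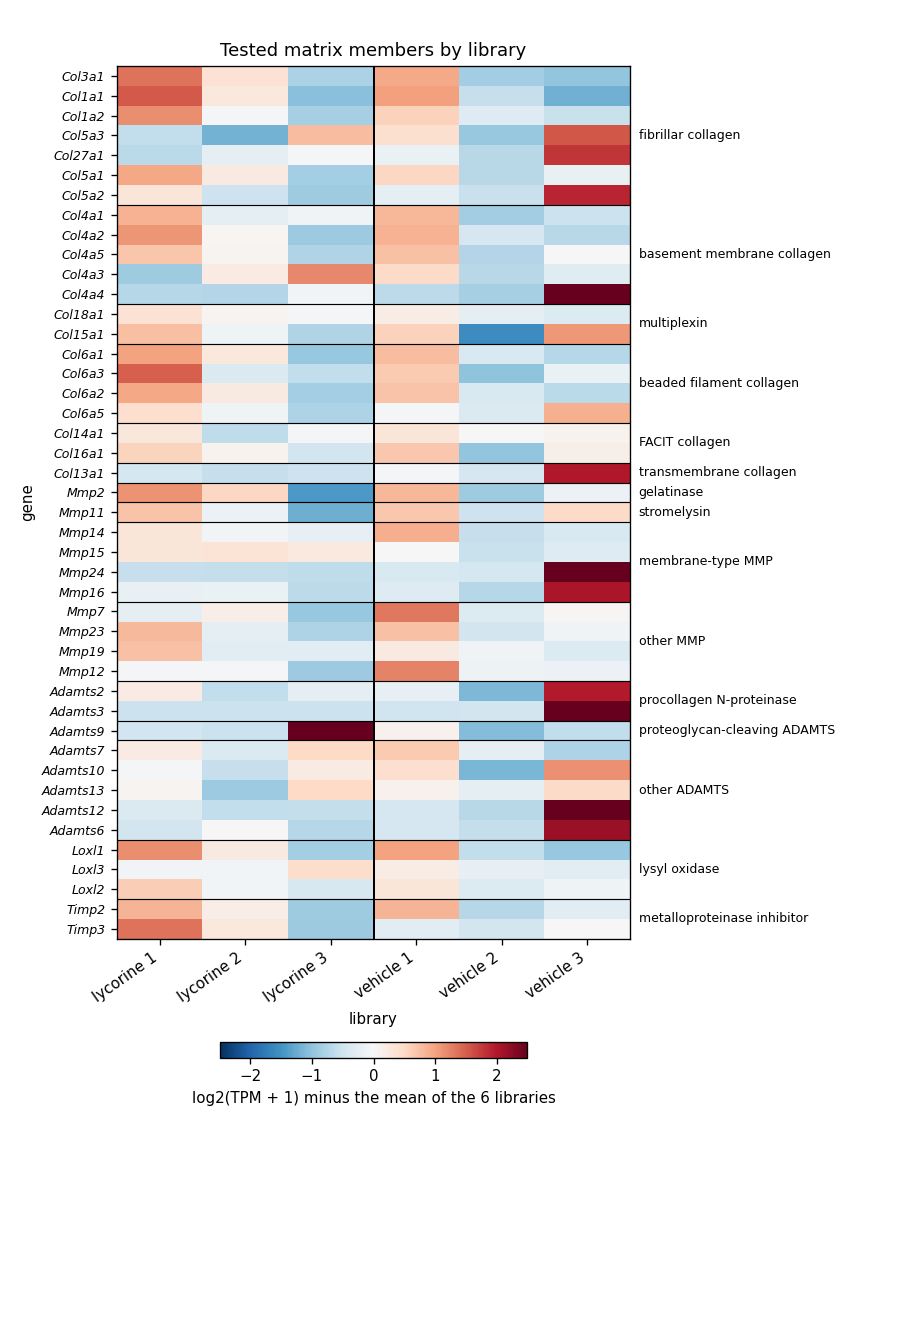
Heat map of the 44 tested members (rows, grouped by role) in the 6 libraries (columns, lycorine left of vehicle), coloured by log2(TPM + 1) minus the gene's mean over the 6 libraries, with the colour scale ending at 2.5 on each side. Red columns are lycorine 1 and vehicle 1 for most type I, III, IV and VI chains and vehicle 3 for many low-level chains and ADAMTS genes. Col5a2, Col5a3 and Col27a1 are also highest in vehicle 3, Col4a3, Adamts9 and Adamts13 in lycorine 3, and Adamts7 in vehicle 1. No role group with more than 1 tested member divides lycorine from vehicle in all its genes.

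The fibrillar group counts 11 chains, of which 7 were tested, with 4 fold changes above 0, 3 below and a median of 0.20. That median was -0.33 without lycorine 1, 0.67 without lycorine 3 and -0.08 with median-of-ratios scaling, so its sign depended on single libraries and on scaling. Col3a1, on chromosome 1 from 45311538 to 45349706 of GRCm38, had 85.0, 42.1 and 18.4 TPM in the lycorine libraries, against 63.7, 17.5 and 15.9 TPM in the vehicle libraries. Lycorine 1 and vehicle 1 were the high libraries of their groups, and the groups overlapped. The means were 48.5 ± 33.8 TPM with lycorine and 32.4 ± 27.2 TPM with vehicle (SD, n = 3 each), and the log2 fold change was 0.61 (SE 0.69). It was 0.084 without lycorine 1 and 1.23 without vehicle 1. Within the lycorine libraries alone, the highest value was 4.62 times the lowest, and within the vehicle libraries 4.0 times.

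Col1a1, the main chain of type I collagen on chromosome 11 from 94936224 to 94953042, had 33.7, 13.3 and 4.81 TPM in the lycorine libraries, against 23.6, 7.03 and 4.23 TPM in the vehicle libraries. It showed the same high pair of libraries, lycorine 1 and vehicle 1, and overlapping groups, with means of 17.3 ± 14.9 TPM with lycorine and 11.6 ± 10.5 TPM with vehicle (SD, n = 3 each) and a log2 fold change of 0.49 (SE 0.77). Leaving out lycorine 1 gave -0.15 and leaving out lycorine 3 gave 1.14, so a single library set both the size and the sign. Col1a2, its partner on chromosome 6 from 4504814 to 4541544, had 23.6, 9.78 and 5.16 TPM in the lycorine libraries, against 15.3, 7.78 and 6.49 TPM in the vehicle libraries. Its groups overlapped too, with a log2 fold change of 0.20 (SE 0.55). The ratio of Col1a1 to Col1a2, which form type I collagen together, was 1.43, 1.36 and 0.932 in the lycorine libraries and 1.54, 0.904 and 0.652 in the vehicle libraries, so it too was highest in library 1 of each group.

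Type V chains seed and limit the width of type I fibrils, and they split into different patterns. Col5a1 followed the type I chains, with 8.17, 4.46 and 1.60 TPM in the lycorine libraries, against 5.72, 1.88 and 3.09 TPM in the vehicle libraries and a log2 fold change of 0.24 (SE 0.53). Col5a2 had 2.52, 0.99 and 0.53 TPM in the lycorine libraries, against 1.40, 0.93 and 9.60 TPM in the vehicle libraries. Its high value was vehicle 3 alone, and the log2 fold change of -0.73 (SE 0.70) was 0.035 without vehicle 3. Col5a3 had 4.99, 3.04 and 14.7 TPM in the lycorine libraries, against 11.1, 3.77 and 25.7 TPM in the vehicle libraries, with both libraries numbered 3 high and a log2 fold change of -0.67 (SE 0.72), which was -0.067 without vehicle 3 and -1.31 without vehicle 2. Col27a1, a fibrillar chain best known from cartilage, had 1.69, 2.70 and 3.15 TPM in the lycorine libraries, against 2.85, 1.67 and 13.9 TPM in the vehicle libraries. It too was high in vehicle 3 alone. Its log2 fold change was -0.63 (SE 0.63), and 0.11 without that library. The 4 untested fibrillar chains, Col2a1, Col11a1, Col11a2 and Col24a1, are chains of cartilage or of minor fibrils, and none averaged above the 0.457 TPM of Col11a2.

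Type IV collagen counts 6 chains, of which 5 were tested, with 4 fold changes above 0, 1 below and a median of 0.17, which was -0.34 without lycorine 1, 0.65 without vehicle 1 and -0.10 with median-of-ratios scaling. Col4a1, on chromosome 8 from 11198423 to 11312826, had 34.3, 15.5 and 17.1 TPM in the lycorine libraries, against 33.3, 9.50 and 12.2 TPM in the vehicle libraries. Its means were 22.3 ± 10.4 TPM with lycorine and 18.3 ± 13.1 TPM with vehicle (SD, n = 3 each), with a log2 fold change of 0.38 (SE 0.52), which was 0.040 without lycorine 1 and 0.90 without vehicle 1. Col4a2, from 11312805 to 11449287, had 19.8, 9.10 and 4.18 TPM in the lycorine libraries, against 16.8, 6.21 and 4.96 TPM in the vehicle libraries and a log2 fold change of 0.17 (SE 0.61). In both chains lycorine 1 and vehicle 1 were nearly level and high, and the groups overlapped. The Col4a1 to Col4a2 ratio was 1.73, 1.70 and 4.09 in the lycorine libraries and 1.99, 1.53 and 2.45 in the vehicle libraries, so the libraries numbered 3 departed most from the rest. The exons of this pair overlap by 22 bases on opposite strands.

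All 6 type IV genes form 3 such pairs, each transcribed away from a shared stretch. Between Col4a4 and Col4a3 on chromosome 1 there are 71 bases, and between Col4a6 and Col4a5 on the X chromosome 1308. Levels did not keep step within these pairs. Col4a3, a chain of the kidney filter and of some epithelia, had 0.89, 3.01 and 7.04 TPM in the lycorine libraries, against 3.87, 1.16 and 1.82 TPM in the vehicle libraries, highest in lycorine 3. Col4a4, its partner, had 0.20, 0.19 and 0.88 TPM in the lycorine libraries, against 0.25, 0.11 and 15.1 TPM in the vehicle libraries. Vehicle 3 alone carried Col4a4, and no conclusion is drawn from its fold change. Col4a3 shares 563 exonic bases with C430014B12Rik on the opposite strand, which was between 2.34 and 6.40 TPM. Part of the Col4a3 value thus cannot be told apart from it. Col4a5, a chain of several epithelial basement membranes, had 5.16, 3.02 and 1.27 TPM in the lycorine libraries, against 5.34, 1.31 and 2.80 TPM in the vehicle libraries and a log2 fold change of 0.005 (SE 0.51), the smallest of the tested members. Col4a6, below the level needed for a test, had 0.26, 0.23 and 1.76 TPM in the lycorine libraries, against 1.35, 0.02 and 0.08 TPM in the vehicle libraries.

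**Figure D2:**
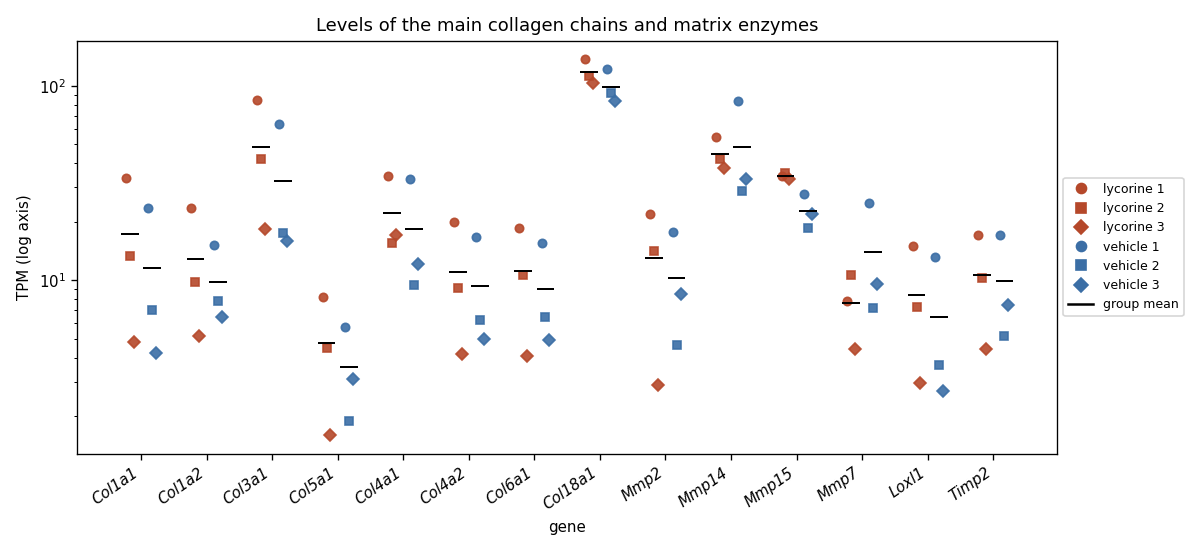
TPM on a log axis (y) of 14 collagen chains, proteases, a crosslinking enzyme and an inhibitor (x), with 1 point per library, lycorine left of vehicle, and a bar at each group's mean. Points of the groups overlap in every gene except Mmp15, where the lycorine libraries lie between 33.0 and 35.5 TPM and the vehicle libraries between 18.5 and 27.7 TPM.

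Fibrillar and basement membrane chains were then set against each other within each library. Fibrillar chains summed to 159.9, 76.5 and 49.4 TPM in the lycorine libraries and to 124.0, 40.7 and 79.8 TPM in the vehicle libraries. Type IV chains summed to 60.6, 31.0 and 32.2 TPM with lycorine and to 60.9, 18.3 and 36.9 TPM with vehicle. Their ratio was 2.64, 2.46 and 1.53 in the lycorine libraries, against 2.04, 2.22 and 2.16 in the vehicle libraries. Lycorine 1 and 2 lay above all vehicle libraries and lycorine 3 below them, so the groups overlapped. On the log2 scale the ratio was 1.11 ± 0.427 with lycorine and 1.10 ± 0.065 with vehicle (SD, n = 3 each), a difference of 0.0082. Without lycorine 3 the difference was 0.25, and without lycorine 1 it was -0.14.

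The makeup of the fibrillar sum differed between libraries. Col1a1, Col1a2 and Col3a1 gave 89.0%, 85.2% and 57.5% of it in the lycorine libraries and 82.7%, 79.3% and 33.4% in the vehicle libraries. In lycorine 3 and vehicle 3 much of the rest was Col5a3. These 3 chains alone, over Col4a1 and Col4a2 alone, gave ratios of 2.63, 2.65 and 1.33 with lycorine and 2.05, 2.06 and 1.56 with vehicle. With those 3 chains left out of the fibrillar sum, the difference of the log2 ratio was -0.58. Vehicle 3 was again the high library, where the remaining chains summed to 53.2 TPM, against at most 21.5 TPM in any other library. Leaving out both libraries numbered 3 gave medians of 0.45 for the tested fibrillar chains and 0.35 for the type IV chains, beside 0.21 for all rows.

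**Figure D3:**
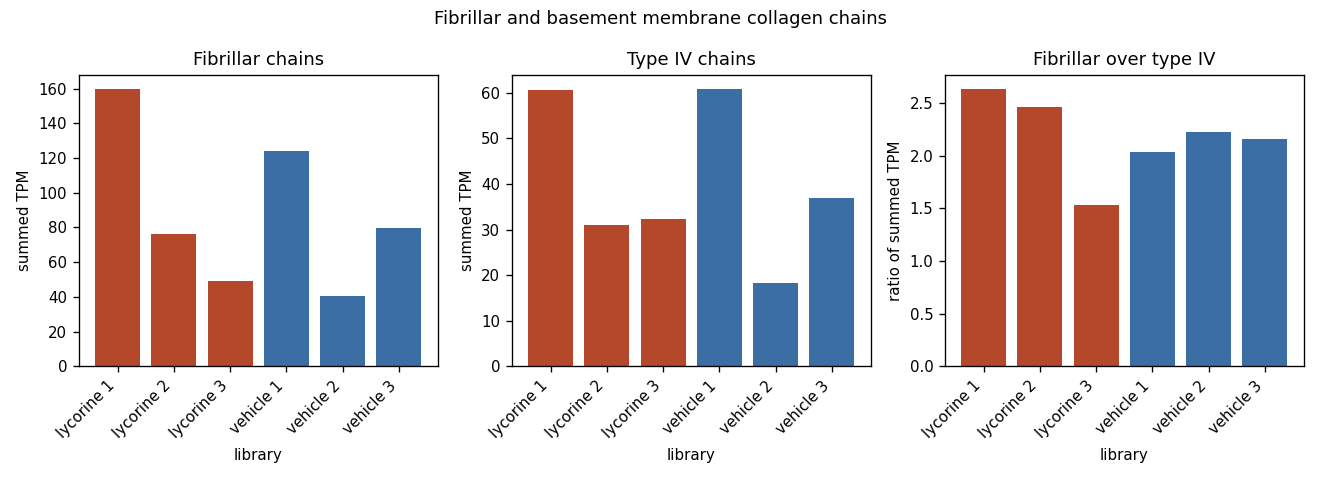
Bars give, for each library (x, lycorine left of vehicle), the summed TPM of the 11 fibrillar chains, the summed TPM of the 6 type IV chains, and the ratio of the sums, each from 0. Both sums are highest or nearly so in lycorine 1 and vehicle 1, and the ratio spreads from 1.53 to 2.64 among the lycorine libraries and from 2.04 to 2.22 among the vehicle libraries.

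Among the multiplexins, Col18a1 stood out by level. It is the source of the fragment endostatin and is made by hepatocytes as well as by vessel cells. On chromosome 10 from 77052178 to 77166548, it had 137, 112 and 103 TPM in the lycorine libraries, against 121, 91.6 and 83.9 TPM in the vehicle libraries, the highest mean of all 92 members. Its spread was narrow, with the highest lycorine library at 1.33 times the lowest and the highest vehicle library at 1.45 times the lowest. The means were 117 ± 17.5 TPM with lycorine and 98.99 ± 19.8 TPM with vehicle (SD, n = 3 each), the groups overlapped, and the log2 fold change was 0.25 (SE 0.29), close to the median of all rows. With median-of-ratios scaling it was -0.059. Col15a1, its relative in vessel basement membranes, had 10.8, 5.49 and 3.15 TPM in the lycorine libraries, against 9.44, 1.34 and 13.8 TPM in the vehicle libraries, a wide spread in both groups.

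Type VI collagen forms beaded filaments between fibrils and basement membranes, and 4 of its 6 chains were tested. Col6a1 had 18.6, 10.7 and 4.06 TPM in the lycorine libraries, against 15.5, 6.44 and 4.93 TPM in the vehicle libraries. Col6a2 followed it with 14.2, 8.13 and 3.32 TPM in the lycorine libraries, against 11.8, 4.94 and 3.86 TPM in the vehicle libraries. The ratio of these chains was 1.31, 1.32 and 1.22 in the lycorine libraries and 1.31, 1.30 and 1.28 in the vehicle libraries, the steadiest of the chain ratios computed, although the genes are 85.2 kb apart and each varied over 3-fold within each group. Col6a3, the long chain of the same filament, had 20.4, 4.91 and 3.99 TPM in the lycorine libraries, against 11.1, 2.80 and 5.76 TPM in the vehicle libraries. Their log2 fold changes were 0.22, 0.23 and 0.34, each smaller than its standard error, and all 3 chains were highest in lycorine 1. Col6a5 had 2.75, 1.61 and 0.65 TPM in the lycorine libraries, against 1.74, 1.18 and 4.19 TPM in the vehicle libraries, with a log2 fold change of -0.31 (SE 0.49).

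FACIT collagens bind to the surface of fibrils, and 2 of 9 were tested. Col14a1, which binds type I fibrils, had 10.1, 4.91 and 7.89 TPM in the lycorine libraries, against 10.3, 8.26 and 8.76 TPM in the vehicle libraries. Col16a1 had 9.44, 6.51 and 4.11 TPM in the lycorine libraries, against 10.2, 2.55 and 6.81 TPM in the vehicle libraries. Neither separated the groups, and the log2 fold change was -0.27 (SE 0.32) for Col14a1 and 0.12 (SE 0.49) for Col16a1. Among the 4 transmembrane collagens, Col13a1 was tested and had 0.37, 0.24 and 0.29 TPM in the lycorine libraries, against 0.78, 0.39 and 6.45 TPM in the vehicle libraries. All 3 lycorine libraries were below all 3 vehicle libraries. The log2 fold change was -1.02 (SE 0.71), and -0.28 without vehicle 3, whose 6.45 TPM carried the gene past the level needed for a test. The network collagens of type VIII and type X, and Col7a1, Col26a1 and Col28a1, were all below that level.

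Matrix metalloproteinases numbered 22, with 10 tested, 4 fold changes above 0 and 6 below. The interstitial collagenases, which cut intact fibrils, were at or near 0 in both groups. Mmp13 reached at most 0.08 TPM in any library and Mmp8 at most 0.05 TPM, and Mmp1b was listed at 0 in all 6. Of the gelatinases, which degrade unwound collagen and type IV collagen, Mmp2 on chromosome 8 from 92827291 to 92853420 had 22.0, 14.1 and 2.88 TPM in the lycorine libraries, against 17.7, 4.64 and 8.49 TPM in the vehicle libraries. Its log2 fold change was 0.14 (SE 0.72), lycorine 3 was its lowest library, and the groups overlapped. Mmp9, the gelatinase of neutrophils and macrophages, was at 0.03, 0.05 and 0 TPM with lycorine and at 0.42, 0.05 and 0.09 TPM with vehicle. Beside it, the summed level of the 8 neutrophil markers was 2.85, 2.86 and 1.39 TPM with lycorine and 26.1, 7.25 and 5.10 TPM with vehicle, without overlap. Of those markers 2 were tested, S100a8 and S100a9, which held most of each sum, and neither was called. S100a9 was lower in all lycorine than in all vehicle libraries, against 1.01% of all tested rows, and S100a8 overlapped. Of the 3 defining markers, Ly6g was at 0 in all 6 libraries. Ngp was above 0 only in lycorine 2 (0.04 TPM), and Retnlg stayed at or below 0.45 TPM. Their part in the Mmp9 values was not tested.

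The membrane-type proteases gave the highest levels of the family. Mmp14, the activator of proMmp2 and a collagenase in its own right, lies on chromosome 14 from 54431612 to 54445364 and had 54.2, 41.8 and 37.7 TPM in the lycorine libraries, against 83.2, 28.9 and 33.3 TPM in the vehicle libraries. Vehicle 1 was far above the others, the groups overlapped, and the means were 44.6 ± 8.62 TPM with lycorine and 48.5 ± 30.2 TPM with vehicle (SD, n = 3 each), with a log2 fold change of 0.03 (SE 0.44). Mmp15, a related protease, lies on chromosome 8 from 95352268 to 95375080 and had 34.3, 35.5 and 33.0 TPM in the lycorine libraries, against 27.7, 18.5 and 21.9 TPM in the vehicle libraries. All 3 lycorine libraries lay within 1.08 times of each other and above all vehicle libraries. The means were 34.3 ± 1.27 TPM with lycorine and 22.7 ± 4.67 TPM with vehicle (SD, n = 3 each).

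The log2 fold change of Mmp15 was 0.59 (SE 0.28), with the smallest p of the members, a limma unadjusted p of 0.0679 and an adjusted p of 0.832. It kept its sign when any 1 library was left out, between 0.46 and 0.74. It was smaller under other scalings, with 0.29 under median-of-ratios scaling and 0.34 under quantile normalization. Rescaled to protein-coding nuclear genes alone, the libraries were at 43.9, 47.2 and 47.5 TPM with lycorine and 38.7, 29.0 and 42.5 TPM with vehicle, still without overlap.

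Mmp24 and Mmp16 are membrane-type proteases described in brain among other tissues. Mmp24 had 0.05, 0.03 and 0.01 TPM in the lycorine libraries, against 0.21, 0.16 and 8.61 TPM in the vehicle libraries. It shares 637 exonic bases with BC029722 on the opposite strand, which was between 6.91 and 18.95 TPM. Mmp16 had 0.46, 0.48 and 0.06 TPM in the lycorine libraries, against 0.33, 0.02 and 5.89 TPM in the vehicle libraries. Vehicle 3 alone carried both past the level needed for a test. Without it the log2 fold change was -0.20 for Mmp24, with the 5 remaining libraries at or below 0.21 TPM, and 0.18 for Mmp16.

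The secreted Mmp genes include a cluster on chromosome 9 between 7272514 and 7699585, a span of 427 kb with 9 members. Only Mmp7 and Mmp12 of the 9 reached the level needed for a test, 3 were listed at 0 in all libraries, and no other member of the cluster exceeded 0.35 TPM. Mmp7, matrilysin, a protease of ductal epithelium, had 7.82, 10.6 and 4.41 TPM in the lycorine libraries, against 25.1, 7.18 and 9.60 TPM in the vehicle libraries, with vehicle 1 highest, overlapping groups and a log2 fold change of -0.68 (SE 0.51). Mmp12, the elastase of macrophages, had 1.49, 1.50 and 0.36 TPM in the lycorine libraries, against 5.05, 1.32 and 1.30 TPM in the vehicle libraries, with vehicle 1 again highest and a log2 fold change of -0.64 (SE 0.53). With median-of-ratios scaling, under which the median of all rows was -0.02, the fold changes were -0.95 for Mmp7 and -0.80 for Mmp12. Without vehicle 1 they were -0.18 for each, and with array quality weights they were -0.14 for Mmp7 and -0.35 for Mmp12.

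Beside these, markers of duct cells and of recruited macrophages were read. The 8 bile duct markers, all tested and none called, summed to 219, 158 and 62.8 TPM with lycorine and to 233, 56.5 and 61.4 TPM with vehicle. The 8 markers of recruited macrophages, 6 tested and none called, summed to 523, 286 and 108 TPM with lycorine and to 639, 152 and 127 TPM with vehicle. Vehicle 1 was highest in both sums, as in Mmp7 and Mmp12, and no defining marker of either list was at 0. Spp1 is in both lists. Their part in the Mmp7 and Mmp12 values was not tested, and in whole liver fewer cells of a type cannot be told apart from less RNA per cell.

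Of the remaining Mmp genes, Mmp11, Mmp19 and Mmp23 were tested. Mmp11, stromelysin-3, a stromal protease, had 5.61, 2.66 and 0.73 TPM in the lycorine libraries, against 5.44, 1.82 and 4.65 TPM in the vehicle libraries and a log2 fold change of -0.43 (SE 0.56). Mmp19 had 6.29, 2.60 and 2.64 TPM in the lycorine libraries, against 4.07, 3.12 and 2.45 TPM in the vehicle libraries. Mmp23 had 7.29, 3.03 and 1.76 TPM in the lycorine libraries, against 6.81, 2.43 and 3.46 TPM in the vehicle libraries. All of them were highest in lycorine 1, their groups overlapped, and the log2 fold change was 0.14 (SE 0.38) for Mmp19 and -0.12 (SE 0.50) for Mmp23. Mmp19 shares 789 exonic bases with Tmem198b on the opposite strand, and whether reads were counted by strand is not given in the sources used here.

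ADAMTS proteases numbered 19, with 8 tested, 2 fold changes above 0 and 6 below. Adamts2, which removes the N-terminal propeptide of procollagens I to III, had 5.26, 2.51 and 3.55 TPM in the lycorine libraries, against 3.70, 1.48 and 20.3 TPM in the vehicle libraries. Vehicle 3 was far above all others, and the log2 fold change of -0.44 (SE 0.74) was 0.44 without it. Adamts3, of the same activity, was listed at 0 in all 3 lycorine libraries and at 0.02, 0.05 and 7.47 TPM in the vehicle libraries. Its non-overlap thus rested on 1 library and on values near 0, and no conclusion is drawn from its fold change. Adamts14, the last of these enzymes, averaged 0.388 TPM and was not tested. By mean TPM, Adamts2 was the highest of these enzymes in both groups.

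The proteases that cut proteoglycans were mostly low, and only Adamts9 of 7 was tested. Adamts9 had 1.77, 1.66 and 22.4 TPM in the lycorine libraries, against 3.16, 0.82 and 1.50 TPM in the vehicle libraries, so lycorine 3 alone was high, and the log2 fold change of 1.06 (SE 0.85) was 0.027 without lycorine 3. Adamts9 shares 1381 exonic bases with A730049H05Rik on the opposite strand, which was at or below 0.19 TPM in all libraries. Adamts8, at a mean of 0.922 TPM, was the member just under the level needed for a test. The members just above it were Loxl2 at 1.14 TPM, Mmp16 at 1.21 TPM and Adamts3 at 1.26 TPM.

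Among the remaining ADAMTS genes, Adamts7, which cleaves cartilage oligomeric matrix protein, was highest by mean and had 17.8, 11.7 and 22.1 TPM in the lycorine libraries, against 24.8, 12.8 and 8.56 TPM in the vehicle libraries. Adamts10, involved in fibrillin microfibrils, had 7.48, 4.82 and 9.04 TPM in the lycorine libraries, against 10.6, 2.91 and 18.1 TPM in the vehicle libraries. Adamts13, made by stellate cells and known for cutting von Willebrand factor, had 4.94, 2.02 and 7.07 TPM in the lycorine libraries, against 5.10, 3.87 and 6.97 TPM in the vehicle libraries. None of these separated the groups, and their log2 fold changes were 0.23 (SE 0.44), -0.27 (SE 0.58) and -0.24 (SE 0.42). Adamts12 and Adamts6 were carried past the level needed for a test by vehicle 3 alone, at 9.58 and 6.55 TPM, with no other library above 0.71 TPM. Adamts16, below that level, had 0.37, 0.40 and 0.31 TPM in the lycorine libraries, against 0.24, 0.06 and 0.11 TPM in the vehicle libraries, with all lycorine libraries above all vehicle libraries.

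Lysyl oxidases crosslink collagen and elastin, and 3 of 5 were tested, all with fold changes above 0 and 1 above the median of all rows. Loxl1, the member tied to elastic fibres, had 15.0, 7.29 and 2.95 TPM in the lycorine libraries, against 13.2, 3.64 and 2.70 TPM in the vehicle libraries. It followed the fibril chains, highest in lycorine 1 and vehicle 1, with overlapping groups and a log2 fold change of 0.37 (SE 0.66). Loxl2, an enzyme of type IV collagen crosslinks, had 2.17, 0.98 and 0.58 TPM in the lycorine libraries, against 1.55, 0.64 and 0.92 TPM in the vehicle libraries. Without lycorine 1, Loxl2 averaged 0.934 TPM, under the level needed for a test, so its sign follows from the library that let it in. Loxl3 had 1.71, 1.72 and 2.84 TPM in the lycorine libraries, against 2.23, 1.45 and 1.32 TPM in the vehicle libraries. It shares 535 exonic bases with Htra2 on the opposite strand, which was between 7.75 and 17.19 TPM. Part of the Loxl3 value thus cannot be told apart from Htra2. Lox, on chromosome 18, stayed below the level needed for a test, with 0.75, 0.23 and 0.11 TPM in the lycorine libraries, against 0.91, 0.43 and 0.17 TPM in the vehicle libraries. The fold change of Loxl2 was 0.10 (SE 0.48), and it was -0.18 without lycorine 1 and -0.052 with median-of-ratios scaling.

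The inhibitor Timp2, which also takes part in the activation of proMmp2 by Mmp14, had 17.2, 10.3 and 4.43 TPM in the lycorine libraries, against 17.2, 5.17 and 7.41 TPM in the vehicle libraries. Lycorine 1 and vehicle 1 were level, and the log2 fold change was 0.08 (SE 0.56). The Mmp14 to Timp2 ratio was 3.16, 4.07 and 8.51 in the lycorine libraries and 4.85, 5.59 and 4.50 in the vehicle libraries, with lycorine 3 highest and lycorine 1 lowest. Timp3, which binds to the matrix itself, had 4.19, 1.44 and 0.08 TPM in the lycorine libraries, against 0.69, 0.48 and 1.05 TPM in the vehicle libraries. Lycorine 1 carried it past the level needed for a test, and its log2 fold change was 0.47 (SE 0.64). Timp3 shares 1733 exonic bases with Syn3 on the opposite strand, which was at 5.49, 3.86 and 21.2 TPM with lycorine and 5.61, 1.13 and 13.4 TPM with vehicle, so part of the Timp3 value cannot be told apart from Syn3.

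**Figure D4:**
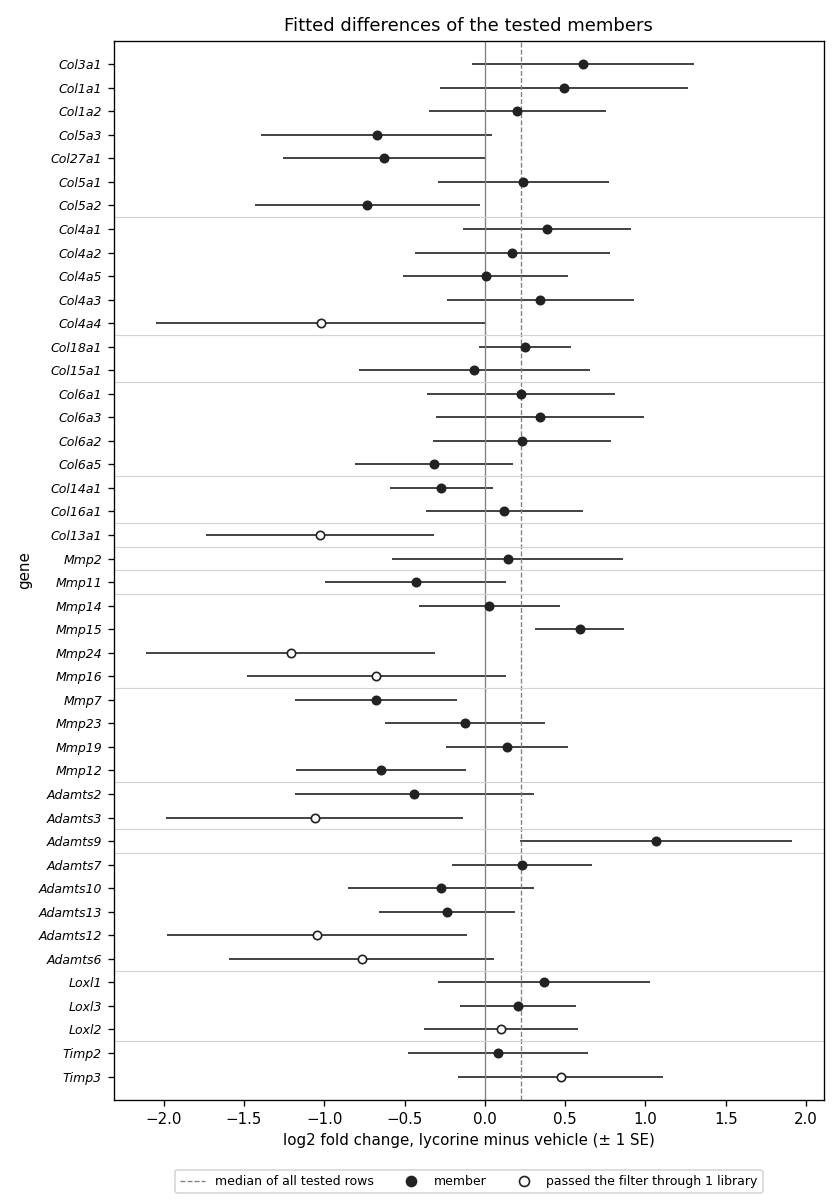
Fitted log2 fold change of lycorine minus vehicle (x, log2(TPM + 1) scale, with 1 standard error to each side) for the 44 tested members (y, grouped by role), with a dashed line at the median of all tested rows. Open points are the 9 members that passed the level filter through 1 library, and of the 44 fold changes 34 are smaller than their own standard error.

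A group of 10 members was over 2-fold higher in vehicle 3 than in the next library, 22.7% of the tested members, against 11.4% of all tested rows and 7.43% of tested protein-coding rows. They were Col4a4, Col5a2, Col27a1, Col13a1, Mmp16, Mmp24, Adamts2, Adamts3, Adamts6 and Adamts12, a set read off after the values were seen. Without vehicle 3, 7 of the 10 averaged under 1 TPM, so that library alone brought them past the filter. For these 7, being highest in vehicle 3 was thus fixed by the filter. The 10 genes were long, with a median span from first to last exon of 173 kb (43.0 to 284 kb). The 34 other tested members had a median span of 41.6 kb. The same held for the 817 tested protein-coding rows over 2-fold higher in vehicle 3, at a median span of 93.3 kb, against 21.9 kb for the other tested protein-coding rows. In vehicle 3 protein-coding nuclear genes also held the smallest share of TPM, 51.5%. The part of RNA makeup in these values was not tested.

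Genes that act on collagen before and after secretion were read from lists chosen with earlier results of these data known. In none of the 5 lists did limma call a gene, and none had an unadjusted p under 0.05. Their counts and medians stand beside those of all tested rows, of which 9680 of 13854 were above 0, with a median of 0.22. Of 16 genes of collagen modification and folding, 15 were tested, with 10 fold changes above 0, 5 below and a median of 0.19. P4hb, the disulfide isomerase that is also the second subunit of prolyl hydroxylase, had 376, 466 and 436 TPM with lycorine and 350.2, 249 and 235 TPM with vehicle. All lycorine libraries lay above all vehicle libraries, as in 9.6% of all tested rows, and P4hb was the only tested gene of its list to do so. The log2 fold change was 0.63 (SE 0.28, limma unadjusted p = 0.0575, adjusted p = 0.832). Plod1, a lysyl hydroxylase, was at 16.2, 11.8 and 12.1 TPM with lycorine and 12.96, 9.69 and 7.37 TPM with vehicle, with overlap. Plod2 and P3h2, hydroxylases of lysine and proline, were high in vehicle 3 alone, at 8.77 and 15.2 TPM, with no other library above 0.91 TPM.

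Trimming and secretion of procollagen gave 5 fold changes above 0 and 1 below among 6 tested of 9 listed. Their median was 0.39, beside 0.22 for all tested rows. Mia2 and Mia3, which help to load procollagen into transport carriers, had log2 fold changes of 0.51 (SE 0.40) and 0.40 (SE 0.32), and both overlapped between groups. Genes of collagen turnover and other inhibitors gave 5 above 0 and 2 below among 7 tested of 12, with a median of 0.15. Timp1, an inhibitor induced in injured liver, was at 13.8, 6.74 and 4.39 TPM with lycorine and 29.0, 5.93 and 9.14 TPM with vehicle, with vehicle 1 highest and a log2 fold change of -0.59 (SE 0.61).

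Laminins and basement membrane partners gave 7 above 0 and 3 below among 10 tested of 16, with a median of 0.13. Sparc, a collagen-binding protein, was at 152, 75.6 and 36.5 TPM with lycorine and 117, 34.5 and 42.2 TPM with vehicle. Hspg2, perlecan, was at 39.0, 11.8 and 7.71 TPM with lycorine and 28.4, 5.21 and 8.18 TPM with vehicle. Both were highest in lycorine 1 and next in vehicle 1. Fibril-associated glycoproteins gave 4 above 0 and 7 below among 11 tested of 17, with a median of -0.15. Dcn, decorin, a proteoglycan on the surface of fibrils, was at 68.5, 30.9 and 12.3 TPM with lycorine and 60.4, 51.7 and 64.6 TPM with vehicle. Its vehicle libraries were close together and its lycorine libraries were not, the groups overlapped through lycorine 1, and the log2 fold change was -0.95 (SE 0.57). Fn1, fibronectin, most of it made by hepatocytes, was at 172, 127 and 109 TPM with lycorine and 123, 94.7 and 68.8 TPM with vehicle, with a log2 fold change of 0.52 (SE 0.33).

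Markers of the cells that make matrix were set beside the fibril chains. The 10 stellate cell markers, 6 tested and none called, summed to 46.6, 29.9 and 17.4 TPM with lycorine and 49.3, 20.9 and 23.8 TPM with vehicle. The 8 portal fibroblast markers, 7 tested and none called, summed to 613, 238 and 107 TPM with lycorine and 806, 128 and 202 TPM with vehicle, most of it Mgp. The fibril chains Col1a1, Col1a2 and Col3a1 summed to 142, 65.1 and 28.4 TPM with lycorine and 102.5, 32.3 and 26.7 TPM with vehicle. Lycorine 1 and vehicle 1 were thus highest in the fibril chains and in the stellate cell, portal fibroblast and bile duct marker sums. Either of them was also highest in 58.3% of tested protein-coding rows. No defining marker of these lists was at 0, though Lrat, a defining stellate cell marker, was not tested. The part of these cells in the fibril chain values was not tested.

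Single markers did not all follow their list. Reln, a defining stellate cell marker, was at 2.30, 1.73 and 1.73 TPM with lycorine and 2.72, 3.09 and 4.74 TPM with vehicle. Acta2, the actin of activated stellate cells, was at 2.27, 1.13 and 0.61 TPM with lycorine and 0.49, 0.28 and 0.59 TPM with vehicle. Tagln, of the same list, was at 3.95, 2.69 and 2.25 TPM with lycorine and 1.40, 1.54 and 2.23 TPM with vehicle. The lycorine libraries all lay below the vehicle libraries in Reln, against 1.01% of all tested rows. They all lay above them in Acta2 and Tagln, against 9.6% of all tested rows. Reln and Tagln were not called, and Acta2 was below the level needed for a test. Markers of sinusoidal endothelium, the cells of the liver's capillaries, which also make type IV collagen, had 5 of 8 tested, all 5 with fold changes below 0. Of these 5, 2 (Clec1b and Clec4g) had an unadjusted limma p under 0.05, against 3.44% of all tested rows, and the same 2 were lower in all lycorine than in all vehicle libraries, against 1.01% of all tested rows. The endothelial sums were 59.3, 40.4 and 68.2 TPM with lycorine and 105, 38.8 and 123 TPM with vehicle. Kupffer cell markers, of the resident macrophages, had 7 of 8 tested, 6 of them below 0. Of these 7, 5 had an unadjusted limma p under 0.05 and 5 were lower in all lycorine than in all vehicle libraries, against the same shares of all rows, and none was called. Their sums were 241, 249 and 317 TPM with lycorine and 259, 278 and 275 TPM with vehicle. Most of each sum was C6, a complement gene that hepatocytes also make, whose lycorine libraries all lay above the vehicle libraries. The other 7 markers summed to 21.3, 29.7 and 71.2 TPM with lycorine and 97.7, 87.0 and 152 TPM with vehicle, without overlap. This sum was taken after the values were seen and leaves out the only tested marker above 0. Its non-overlap thus adds nothing to the single markers. No defining marker of either list was at 0 in any library, but Lyve1, a defining endothelial marker, lay between 0.02 and 0.47 TPM and was not tested. Hepatocyte markers, 8 of 8 tested, summed to 42090, 46610 and 30450 TPM with lycorine and 44550, 44020 and 15680 TPM with vehicle, so the labelled tissue was present in all 6 libraries, at its lowest in vehicle 3. The part of these cells in the type IV and Mmp values was not tested.

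**Figure D5:**
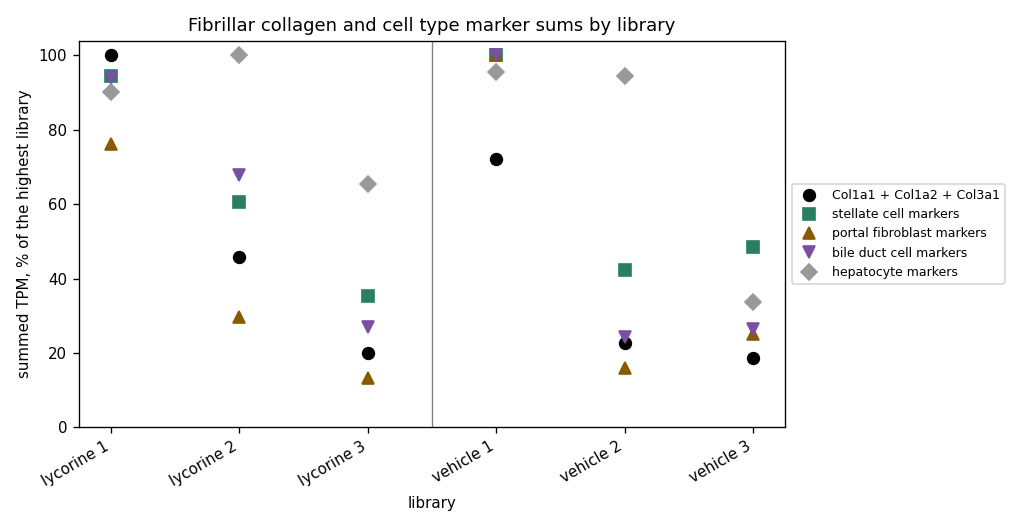
Summed TPM of Col1a1, Col1a2 and Col3a1 and of 4 marker lists in each library (x, lycorine left of vehicle), each as a percentage of its highest library (y). The fibril sum and the stellate cell, portal fibroblast and bile duct sums are high in lycorine 1 and vehicle 1 and low in lycorine 3, vehicle 2 and vehicle 3, while the hepatocyte sum is lowest in vehicle 3.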

How the data were processed

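RNA was measured by sequencing in 6 liver libraries, 3 lycorine and 3 vehicle. The authors deposited a single expression table named for FPKM. Every column adds up to 1000000 within rounding, so the deposited values are TPM with 2 decimals, and depth and counting error are unknown. The vehicle columns carry only genotype and number and were assigned by elimination. No source used here names the aligner, quantifier or strand setting; the builds GRCm38 and mm10 are per the submitters' processing notes. GENCODE M21 (GRCm38) supplied names and coordinates for 52083 of the 58601 rows.

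Values were transformed to log2(TPM + 1), which understates the change of low genes, and rows averaging 1 TPM or more were tested two-sided with limma 3.58.1 (R 4.3.3, variance trend), adjusting p by Benjamini-Hochberg over the 13854 tested rows and calling below 0.05. The procedure was tested on simulated data. Members, role groups, other matrix lists and marker lists were chosen with earlier results of these data known, so lists are described by counts and medians without a test. Named genes were 14 fixed members, up to 4 tested members of highest mean per role, the 5 smallest p on each side, members whose groups did not overlap and up to 4 genes of smallest p per other list. Some others were named after their values were seen, where a role group was described in full. Alternatives changed the pseudocount, filter, scaling, variance model, weights, replicate block and libraries. Promoter windows came from the RefSeq table on GRCm38.p6.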

Additional observations from a re-analysis of the deposited data

How the results depend on the processing

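The count of called members was 0 of the tested members under every alternative run. Over all rows limma called 0, with 1 called with a pseudocount of 0.1 and 1 with array quality weights, and 0 to 2 when 1 library was left out (1 without lycorine 2, 2 without vehicle 2). Members with an unadjusted p under 0.05 were 0, against 2 with no filter (Mmp15 and Adamts16), 1 with median-of-ratios scaling (Mmp7), 1 with array quality weights (Mmp15), 1 with the replicate block (Col5a3), 1 without both libraries numbered 3 (Mmp24) and 0 to 2 when 1 library was left out (Mmp15 without vehicle 1, Mmp15 and Mmp24 without vehicle 3). Whether replicate numbers pair the libraries was not settled. Deviations of same-numbered libraries correlated at 0.31, 0.049 and 0.29 across rows, and those of differently numbered libraries between -0.34 and 0.21. Each lycorine library correlated best with the vehicle library of its number, but vehicle 2 correlated best with lycorine 1. The block left the number of called rows at 0 and moved rows with an unadjusted limma p under 0.05 from 476 to 1033. The fibrillar median was 0.20 and ran from -0.33 to 0.67 when 1 library was left out, and the type IV median was 0.17 and ran from -0.34 to 0.65. Under median-of-ratios scaling these medians were -0.079 and -0.10, beside -0.02 for all rows. The difference in the log2 ratio of fibrillar to type IV sums was 0.0082, and -0.58 without Col1a1, Col1a2 and Col3a1. Of 683 alternative values for the 44 tested members, 578 kept the direction and 105 did not, and the smallest adjusted p was 0.49. The cause of each change was not tested. Without both libraries numbered 3, the log2 fold change changed sign to 0.060 for Adamts10, 0.064 for Adamts12, 0.46 for Adamts2, 0.29 for Adamts6, -0.29 for Adamts7, -0.020 for Adamts9, 0.82 for Col15a1, -0.24 for Col4a3, 0.021 for Col4a4, 0.30 for Col5a2, 0.36 for Col6a5, -0.051 for Loxl3, 0.21 for Mmp11, -0.045 for Mmp14, 0.34 for Mmp16 and 0.16 for Mmp23. With median-of-ratios scaling, the log2 fold change changed sign to -0.053 for Adamts7, -0.13 for Col16a1, -0.059 for Col18a1, -0.079 for Col1a2, -0.10 for Col4a2, -0.21 for Col4a5, -0.051 for Col6a1, -0.034 for Col6a2, -0.052 for Loxl2, -0.28 for Mmp14, -0.11 for Mmp19, -0.13 for Mmp2 and -0.19 for Timp2. With protein-coding nuclear genes alone, the log2 fold change changed sign to -0.011 for Adamts7, -0.11 for Col16a1, -0.015 for Col18a1, -0.044 for Col1a2, -0.069 for Col4a2, -0.21 for Col4a5, -0.016 for Col6a1, -0.0001 for Col6a2, -0.050 for Loxl2, -0.23 for Mmp14, -0.078 for Mmp19, -0.11 for Mmp2 and -0.17 for Timp2. With array quality weights, the log2 fold change changed sign to 0.071 for Adamts6, -0.22 for Adamts7, 0.44 for Col15a1 and -0.18 for Mmp19. With a pseudocount of 0.1, the log2 fold change changed sign to 0.014 for Col15a1. With quantile normalization, the log2 fold change changed sign to -0.024 for Col16a1, -0.065 for Col18a1, -0.077 for Col4a5, -0.27 for Mmp14, -0.059 for Mmp2 and -0.10 for Timp2. Leaving out each library in turn moved the log2 fold change across 0 in 31 tested members, over a range of -0.91 to 0.23 for Adamts10, -1.66 to 0.032 for Adamts12, -0.55 to 0.16 for Adamts13, -1.11 to 0.44 for Adamts2, -1.25 to 0.12 for Adamts6, -0.092 to 0.62 for Adamts7, -0.87 to 0.46 for Col15a1 and -0.35 to 0.49 for Col16a1. The range of the same alternative was -0.15 to 1.14 for Col1a1, -0.33 to 0.67 for Col1a2, -1.13 to 0.11 for Col27a1, -0.34 to 0.67 for Col4a2, -0.17 to 0.88 for Col4a3, -1.69 to 0.24 for Col4a4, -0.36 to 0.38 for Col4a5, -0.19 to 0.72 for Col5a1 and -1.19 to 0.035 for Col5a2. It ran over -0.23 to 0.75 for Col6a1, -0.19 to 0.71 for Col6a2, -0.32 to 0.76 for Col6a3, -0.60 to 0.049 for Col6a5, -0.12 to 0.96 for Loxl1, -0.18 to 0.32 for Loxl2 and -0.90 to 0.071 for Mmp11. The other ranges across 0 were -0.25 to 0.49 for Mmp14, -1.20 to 0.18 for Mmp16, -0.20 to 0.31 for Mmp19, -0.39 to 0.90 for Mmp2, -0.56 to 0.23 for Mmp23, -0.33 to 0.55 for Timp2 and -0.087 to 1.05 for Timp3. In the other 13 tested members the sign held, over -1.58 to -0.049 for Adamts3, 0.027 to 1.60 for Adamts9, -1.49 to -0.28 for Col13a1, -0.48 to -0.021 for Col14a1, 0.13 to 0.41 for Col18a1, 0.084 to 1.23 for Col3a1, 0.040 to 0.90 for Col4a1, -1.31 to -0.067 for Col5a3, 0.041 to 0.35 for Loxl3, -0.88 to -0.18 for Mmp12, 0.46 to 0.74 for Mmp15, -1.73 to -0.20 for Mmp24 and -1.02 to -0.18 for Mmp7. Adamts3 was at 0 in all lycorine libraries, so its sign could not turn. Adamts3, Col13a1 and Mmp24 passed the filter through vehicle 3 alone, so a held sign says little about them.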
